A study of Ovis aries and Bos taurus with 15 samples.

Results

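The nuclear genes for the subunits of respiratory complexes II to V were described in endothelial cells of 2 species and under a PPARγ antagonist. They were chosen by gene symbol alone, from the probe sets (groups of short probes that together read 1 transcript) to which the platform annotation gives exactly 1 symbol: SDHA to SDHD, CYC1, CYCS, and symbols that start with UQCR, ATP5 or COX followed by a digit from 4 to 8. The rule found 43 genes, read by 53 probe sets, of 9155 named genes and 24016 probe sets in all: 4 genes of complex II, 9 of complex III, 13 of complex IV and 17 of complex V. CYCS had no probe set with its symbol alone and was not analysed here. Expression was measured on 15 Affymetrix arrays with bovine probes, 1 array per sample. A first group of 5 arrays held bovine cells labelled BAEC, given no treatment by the labels. The 2 other groups, also of 5 arrays, held ovine cells labelled PAEC, kept for 24 h with the DMSO vehicle or with 5 µM GW9662, an irreversible antagonist of the nuclear receptor PPARγ. All cells were grown in DMEM with 10% FBS. The labels do not say whether the arrays of a group came from separate cultures or animals; the p-values therefore cover only the spread among these arrays, which may be technical.

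The respiratory chain of the inner mitochondrial membrane carries electrons from nutrients to oxygen and pumps protons as it does so. Complex II, succinate dehydrogenase, takes electrons from succinate and is also an enzyme of the citric acid cycle; complex III passes electrons from ubiquinol to cytochrome c; complex IV, cytochrome c oxidase, hands them to oxygen; and complex V, the ATP synthase, lets protons flow back to make ATP. Apart from complex II, each complex also holds subunits encoded by mitochondrial DNA, and none of the 19 symbols listed for the mitochondrially encoded subunits had a named probe set here. Endothelial cells make much of their ATP by glycolysis, and their mitochondria are known also as sources of signals and of reactive oxygen species.

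The deposited values are log2 expression values on which a step of 1 is a 2-fold change, and values under 3 lie at the floor of these arrays, where a low level cannot be told from none. Each gene was read from its brightest probe set over the 15 arrays. On that probe set 42 of the 43 genes had a mean of 3 or more and 35 had a mean of 9 or more, while 30.8% of all named genes had a mean under 3. The members varied little between arrays of a group: their median SD was 0.0522 in bovine, 0.0785 in vehicle and 0.0704 in GW9662 arrays. Vehicle replicate 1 stood apart, with a mean correlation of 0.994 with the other vehicle arrays, against 0.996 to 0.998 for every other array with its own group. RNA quality was read from 6 control transcripts, as their 3′ minus 5′ signal on the log2 scale. It was 1.18 ± 0.0846 in vehicle, 0.956 ± 0.0741 in GW9662 and 0.881 ± 0.0432 in bovine arrays (SD, n = 5 each). It differed from vehicle in both comparisons (two-sided exact permutation p = 0.00794 each, the smallest that 5 against 5 arrays can give), and its part in the results below was not tested beyond the fits that hold it as a covariate. Of 15 endothelial markers measured, 4 had a vehicle mean under 3, VWF (2.31), KDR (2.64), FLT1 (2.90) and CLDN5 (2.45), while PECAM1 and CDH5 were at 11.6 and 11.5. The log2 of the summed endothelial level ran from 13.64 to 13.78 in vehicle, 13.49 to 13.64 in GW9662 and 13.85 to 13.97 in bovine arrays. With GW9662, 13 of the 15 endothelial markers had a negative difference, with a median of -0.10; 0 passed, and their part in the results below was not tested. Of 6 leukocyte markers 5 were under 3 in the ovine groups, the other being CD14 at 6.69 in vehicle and 6.72 in GW9662 arrays, and all 7 epithelial and 5 erythroid and platelet markers were under 3 in every group. Of 7 smooth muscle markers 5, and of 8 fibroblast markers 6, were under 3 in each group. Their log2 summed levels were higher on bovine arrays (9.04 to 9.32 and 11.86 to 11.92) than on vehicle arrays (7.43 to 7.77 and 11.31 to 11.49). The sums follow a few bright genes and not most markers. In bovine minus vehicle, COL1A2 (0.91) was the 1 fibroblast marker with a positive difference, and 7 were negative. Of the smooth muscle markers 3 were positive, of which TAGLN (1.83) and SMTN (1.27) passed, and 4 were negative. Whether the cell content differed was not tested.

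The treatment comparison asked whether blocking PPARγ in ovine PAEC moved the genes of these complexes. No member passed the threshold, but nearly all lay slightly lower with GW9662: 40 of 43 values were negative (93.0%), against 60.7% of all named genes, with a median log2 difference of -0.08 against -0.01 for all named genes. Every one of the 17 ATP synthase genes had a lower mean with GW9662, as did 12 of 13 genes of complex IV, 8 of 9 of complex III and 3 of 4 of complex II. The exceptions were SDHD (0.15), a membrane anchor of succinate dehydrogenase, COX6B2 (0.05), the testis isoform of a cytochrome c oxidase subunit, and UQCRC2 (0.04), a core protein of complex III. The shifts were small, with values from -0.31 to 0.15, and the 95% interval lay within a 1.5-fold change in either direction for 42 of 43 members and for 92.2% of all named genes. Only the interval of ATP5F1D, from -0.63 to 0.28, went beyond it.

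In limma 0 of 43 members passed at an adjusted p of 0.05, where 0.218% of named genes and 0.183% of all probe sets did. At an unadjusted p under 0.05, 16 members were lower (37.2%) and 1 was higher (2.33%), against 12.5% and 7.68% of all named genes. Among the 35 members with a mean of 9 or more, a limit chosen after the data were seen, 33 were negative and 13 were lower at that p (37.1%). Of the 1557 named genes as bright, 49.0% were negative, their median was 0.002, and 11.2% were lower at that p. The groups did not overlap in 8 members (18.6%), each lower with GW9662, against 9.71% of named genes lower and 1.90% higher without overlap. These 8 were CYC1, UQCRFS1, COX5B, COX6A2, COX7A1, ATP5F1C, ATP5MC1 and ATP5PD. Of the 35 members with a mean of 9 or more, 4 were lower without overlap (11.4%) and 0 higher. Among the 1557 named genes as bright the shares were 1.93% and 3.66%. In a fit of all 15 arrays, in which the bovine arrays also set the spread, 4 members passed, all lower: COX5B (adjusted p = 0.0177), ATP5MC1 (0.0351), COX7A2 (0.0365) and UQCRFS1 (0.0420). The share of all named genes that passed in that fit is not given here, so this count has no background beside it. With each array centred on its median the median difference was -0.04 and 31 of 43 values were negative. The median over all probe sets was then 0.03, against -0.02 without centring. The 16 members lower at an unadjusted p became 7 with centring, 5 with the 3′ minus 5′ covariate and 10 without vehicle replicate 2. In the same order, the 1 member higher at that p became 2, 0 and 0. The shares of all named genes under these settings are not given here. With the covariate 35 of 43 values were negative and the median was -0.10. The members' median SE was then 0.0799, against 0.0428 without the covariate.

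**Figure D1:**
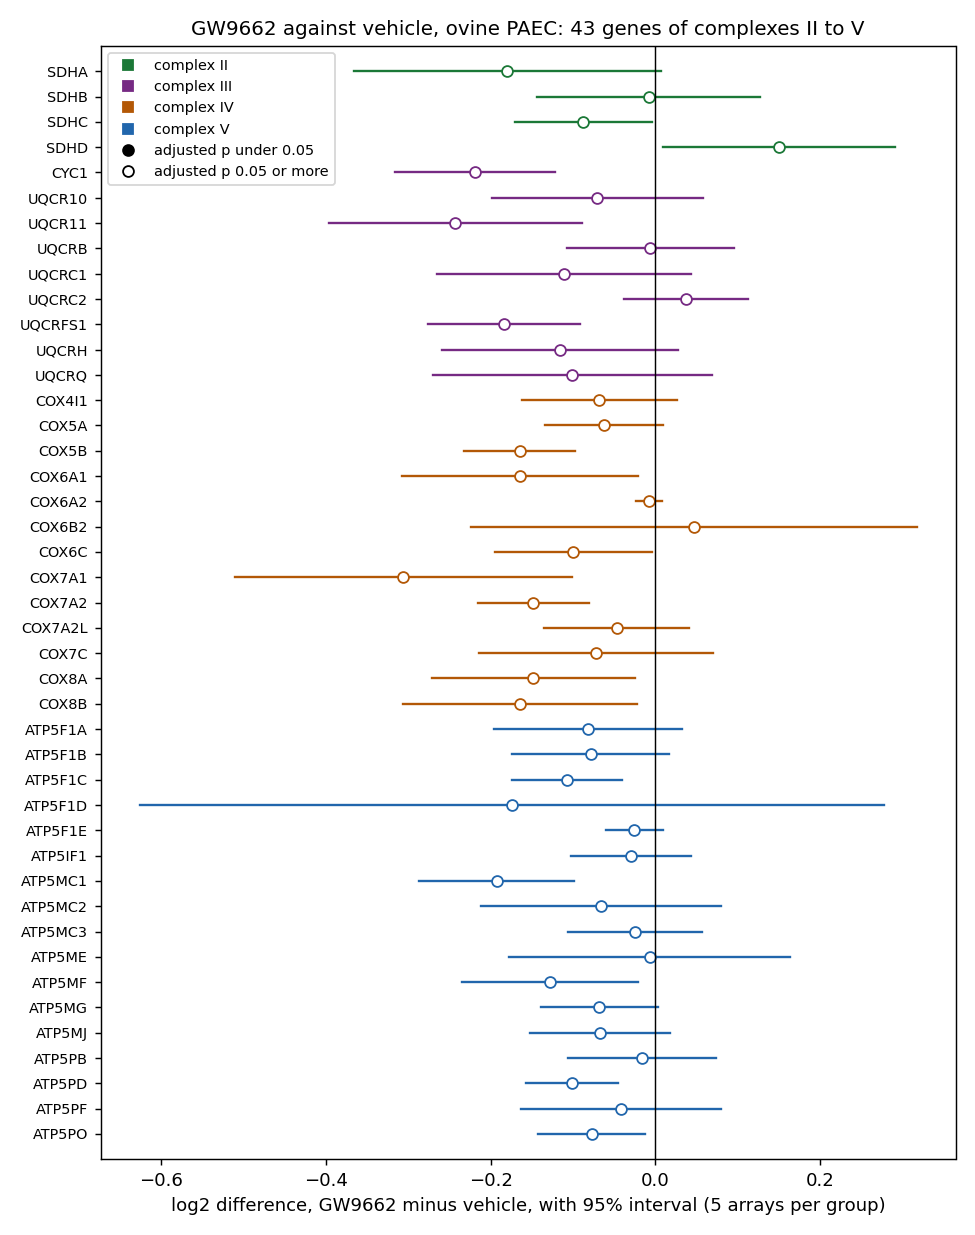
Log2 difference, GW9662 minus vehicle, of each of the 43 genes (points) with its 95% interval (lines), 5 arrays per group, coloured by complex; open points have an adjusted p of 0.05 or more. All points are open, and 40 of 43 lie left of 0.

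The lower values were not carried by 1 array. Set against each gene's vehicle mean, the median over the 43 genes was -0.06, -0.08, -0.09, -0.14 and -0.08 on GW9662 replicates 1 to 5, with 33, 33, 38, 38 and 35 genes below that mean. On vehicle replicates 1 to 5 the same median was -0.03, 0.05, -0.001, -0.07 and 0.02. Vehicle replicate 4 thus lay within the range of the GW9662 arrays; it held the lowest vehicle value in 20 of 43 genes, and vehicle replicate 2 held the highest in 18. The median over all named genes ran from -0.02 to 0.005 on the same 10 arrays. Complex IV was the complex in which the groups came nearest to separating, with medians from -0.16 to -0.07 on GW9662 arrays and from -0.07 to 0.03 on vehicle arrays. Complex III overlapped through GW9662 replicate 1 (-0.05) and vehicle replicate 4 (-0.09), and complex V through GW9662 replicates 1, 2 and 3 (-0.041, -0.033 and -0.057) and vehicle replicate 4 (-0.059), which lay below them. Leaving out any single array kept the median over the 43 genes between -0.10 and -0.06.

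**Figure D2:**
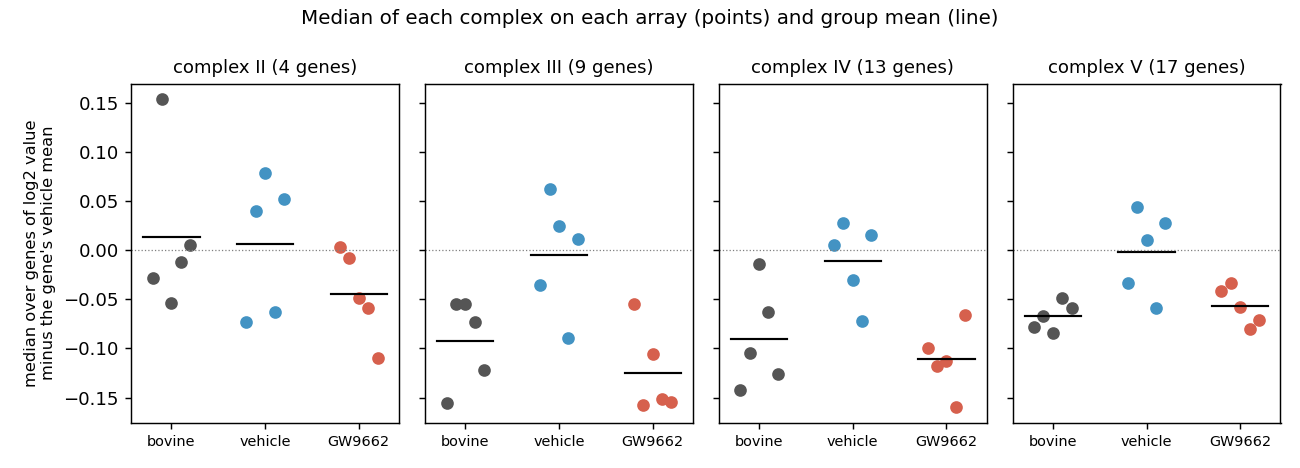
Median over the genes of each complex of the log2 value minus the gene's own vehicle mean, for every array (points) of the 3 groups, with the group mean (line). In complex IV the GW9662 arrays run from -0.16 to -0.07 and the vehicle arrays from -0.07 to 0.03; in complex II the 3 groups overlap.

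Within complex II the subunits did not move as a block. SDHD, which anchors the enzyme in the membrane, read 9.71, 9.78, 9.89, 9.81 and 9.89 on the 5 vehicle arrays and 9.95, 10.00, 9.90, 10.15 and 9.83 with GW9662. The groups overlapped through GW9662 replicate 5, and the log2 difference was 0.15 (SE 0.062, adjusted p = 0.224). SDHC, the other membrane anchor, read 9.92, 9.96, 10.04, 9.85 and 10.02 with vehicle and 9.87, 9.88, 9.83, 9.93 and 9.83 with GW9662, a difference of -0.09 (SE 0.0365, adjusted p = 0.225). Here the GW9662 arrays lay within or below the vehicle range. The catalytic flavoprotein SDHA was at -0.18 (95% interval -0.37 to 0.01, adjusted p = 0.239) and the iron-sulfur subunit SDHB at -0.01 (interval -0.14 to 0.13). The median of the 4 genes was -0.05. It was -0.005 with centring, -0.12 with the 3′ minus 5′ covariate, -0.09 with the quantile normalisation, -0.08 without vehicle replicate 1 and -0.03 without vehicle replicate 3.

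Complex III gave a median of -0.11 over its 9 genes, -0.07 with centring and also without vehicle replicate 5, and -0.17 with the covariate. CYC1, the heme-bearing cytochrome c1 that reduces cytochrome c, read 8.27, 8.43, 8.43, 8.34 and 8.44 with vehicle. With GW9662 it read 8.23, 8.11, 8.24, 8.15 and 8.09, so that every treated array lay below every vehicle array. The log2 difference was -0.22 (SE 0.0428, adjusted p = 0.112), and a second quantile normalisation gave -0.28 with an adjusted p of 0.0255, past the threshold. UQCRFS1, the Rieske iron-sulfur protein that takes electrons from ubiquinol, read 10.61, 10.57, 10.46, 10.38 and 10.52 with vehicle and 10.31, 10.35, 10.33, 10.32 and 10.30 with GW9662. The treated arrays spanned less than the vehicle arrays and lay below all of them, with a difference of -0.18 (SE 0.0406, adjusted p = 0.138, and 0.0467 without vehicle replicate 4). UQCR11, a small subunit, was at -0.24 (SE 0.0678, adjusted p = 0.214). The other small subunits UQCRQ, UQCRH and UQCR10 were at -0.10, -0.12 and -0.07, the core protein UQCRC1 at -0.11, and UQCRB, which lies near the ubiquinone site, at -0.01, with adjusted p from 0.275 to 0.927. UQCRB turned to 0.04 with centring.

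Complex IV held the member with the smallest adjusted p. COX5B, a subunit on the matrix side that binds zinc, read 10.57, 10.52, 10.53, 10.53 and 10.67 with vehicle and 10.41, 10.37, 10.40, 10.39 and 10.44 with GW9662. All treated arrays lay below all vehicle arrays, and the log2 difference was -0.16 (SE 0.0297, 95% interval -0.23 to -0.10, adjusted p = 0.0913). COX7A2, the widely expressed isoform of subunit 7A, read 11.69, 11.67, 11.57, 11.67 and 11.62 with vehicle and 11.45, 11.48, 11.50, 11.48 and 11.57 with GW9662. The highest treated array reached the lowest vehicle array, and the difference was -0.15 (SE 0.0297, adjusted p = 0.119). The median of the 13 genes was -0.10, and -0.06 with centring. COX5A and COX6C, further nuclear subunits, were at -0.06 and -0.10 (adjusted p = 0.259 and 0.226), and COX7C, a small membrane subunit, at -0.07 (0.439).

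Complex V gave a median of -0.07 over its 17 genes (-0.03 with centring), and values from -0.19 to -0.01. ATP5MC1, 1 of 3 genes for the membrane subunit c that turns as protons pass, read 7.11, 7.13, 7.11, 7.12 and 7.23 with vehicle and 6.90, 6.94, 7.08, 6.86 and 6.95 with GW9662. The groups did not overlap, though GW9662 replicate 3 came close to the vehicle arrays, and the difference was -0.19 (SE 0.0416, adjusted p = 0.131, and 0.0456 without GW9662 replicate 3). ATP5PD, subunit d of the peripheral stalk that holds the catalytic head still, read 11.01, 10.98, 10.94, 10.88 and 10.99 with vehicle and 10.87, 10.88, 10.86, 10.82 and 10.86 with GW9662. The treated arrays lay just below the lowest vehicle array, with a difference of -0.10 (SE 0.0245, adjusted p = 0.169). Among the F1 subunits, gamma (ATP5F1C) was at -0.11 (SE 0.0295, adjusted p = 0.212), alpha (ATP5F1A) and beta (ATP5F1B) at -0.08 each (0.311 and 0.271), and epsilon (ATP5F1E) at -0.03 (0.300). The delta subunit ATP5F1D was at -0.17 with an SE of 0.199, since vehicle replicate 1 read 6.49 and the other vehicle arrays 7.23 to 7.54; without that array it was at -0.36 (adjusted p = 0.261). The covariate for RNA quality moved it to -0.87 (SE 0.263, adjusted p = 0.772). Other stalk subunits, OSCP (ATP5PO), F6 (ATP5PF) and b (ATP5PB), were at -0.08, -0.04 and -0.02, and the small membrane subunits ATP5MF, ATP5MG, ATP5MJ and ATP5ME at -0.13, -0.07, -0.07 and -0.01. ATP5IF1, the inhibitor that stops the enzyme from running backwards, read 11.41, 11.46, 11.48, 11.43 and 11.57 with vehicle and 11.49, 11.45, 11.45, 11.39 and 11.42 with GW9662. The groups overlapped, the difference was -0.03 (SE 0.032, adjusted p = 0.531), and it turned to 0.01 with centring.

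**Figure D3:**
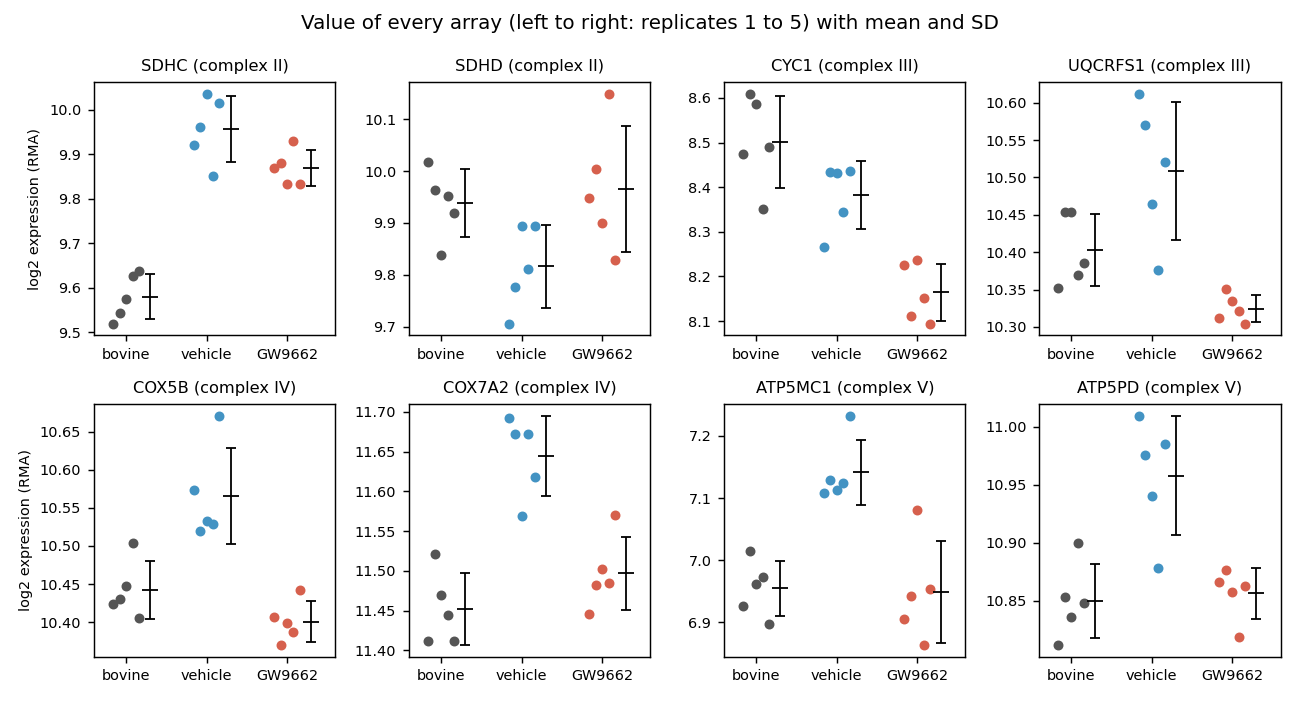
Log2 expression on every array (points, replicates 1 to 5 from left to right) with the mean and SD beside them, for the 2 genes of each complex with the smallest p for GW9662, in the bovine, vehicle and GW9662 groups; each panel has its own axis, which does not start at 0. In CYC1, UQCRFS1, COX5B, ATP5MC1 and ATP5PD all GW9662 arrays lie below all vehicle arrays, and SDHD alone has the higher mean with GW9662.

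Several subunits of complex IV exist as tissue isoforms, and the arrays read more than 1 form for some of them. COX4I2, COX6B1 and COX7B, like CYCS, had no probe set with their symbol alone, so of subunit 6B only COX6B2 was read. COX6A2, the heart and muscle form of subunit 6A, was at the floor. It read 2.04, 2.03, 2.03, 2.04 and 2.03 with vehicle, 2.03, 2.02, 2.03, 2.02 and 2.03 with GW9662 and 2.03, 2.03, 2.02, 2.02 and 2.02 in bovine cells. Its difference with GW9662 was -0.01 (adjusted p = 0.471), so its lack of overlap is one of values at the floor. COX6A1, the liver form, read 10.79, 10.77, 10.65, 10.53 and 10.68 with vehicle and 10.62, 10.47, 10.51, 10.38 and 10.63 with GW9662. These groups overlapped through vehicle replicate 4, with a difference of -0.16 (SE 0.063, adjusted p = 0.218). COX6B2, a form known from testis, read 4.01, 3.61, 3.70, 3.64 and 3.98 with vehicle and 3.53, 3.97, 3.98, 3.97 and 3.71 with GW9662. Both groups spread over the same low range, with a difference of 0.05 (SE 0.119, adjusted p = 0.797), which turned to -0.01 with the quantile normalisation. COX4I1, the common form of subunit 4, read 11.59, 11.61, 11.64, 11.53 and 11.61 with vehicle and 11.65, 11.54, 11.50, 11.41 and 11.55 with GW9662. Its highest value was on a treated array, and the difference was -0.07 (SE 0.0417, adjusted p = 0.308).

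COX7A1, the muscle form of subunit 7A, gave the most negative value among the members. It read 6.19, 6.56, 6.28, 6.41 and 6.18 with vehicle and 6.11, 5.94, 5.80, 6.10 and 6.13 with GW9662. The groups did not overlap, but vehicle replicates 1 and 5 lay close to the treated arrays, and the difference was -0.31 (SE 0.0902, adjusted p = 0.217). COX7A2L, a relative of subunit 7A that helps complexes III and IV join into supercomplexes, read 10.41, 10.58, 10.47, 10.46 and 10.54 with vehicle and 10.39, 10.49, 10.49, 10.37 and 10.47 with GW9662. These overlapped, with a difference of -0.05 (SE 0.0387, adjusted p = 0.415). COX8A, the liver form of subunit 8, read 11.063, 11.113, 11.003, 10.949 and 11.093 with vehicle and 10.929, 10.852, 10.879, 10.764 and 11.056 with GW9662. GW9662 replicate 5 alone reached into the vehicle range, and the difference was -0.15 (SE 0.0543, adjusted p = 0.217). COX8B, the muscle form, read 9.68, 9.78, 9.84, 9.71 and 9.94 with vehicle and 9.80, 9.59, 9.52, 9.62 and 9.59 with GW9662, where replicate 1 alone overlapped (-0.16, SE 0.0627, adjusted p = 0.218). Another COX8B probe set was at the floor in all 3 groups, so the probe sets disagree on whether the gene is expressed.

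Subunit c has 3 genes, whose products share the mature protein and differ in their targeting sequences. ATP5MC1 is given above. ATP5MC2 read 11.08, 11.29, 11.22, 11.01 and 11.07 with vehicle and 11.20, 11.13, 10.98, 10.97 and 11.06 with GW9662, a difference of -0.07 (SE 0.0644, adjusted p = 0.487). ATP5MC3 read 12.09, 12.21, 12.18, 12.02 and 12.17 with vehicle and 12.11, 12.11, 12.12, 12.06 and 12.14 with GW9662. Both overlapped between the groups, and ATP5MC3, at -0.02 (SE 0.0358, adjusted p = 0.640), turned to 0.02 with centring.

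The second comparison set bovine BAEC against ovine PAEC under vehicle. Many members passed, as did 4508 of all 9155 named genes, and the members did so by small amounts. In bovine cells 17 of 43 were lower and 7 higher, with a median of -0.06 and values from -0.48 to 0.80. The median was -0.04 without bovine replicate 1 and -0.03 with centring. The called members include UQCRB, UQCRH and UQCR10 of complex III, SDHC of complex II and COX7C and COX7A2L of complex IV on the lower side, and COX6B2, ATP5F1D, UQCRC1 and ATP5MC2 on the higher side. Species, vessel, the cells put in culture and the match of sheep RNA to bovine probes all differ between these groups. So do the 24 h with DMSO, named for the ovine cells only, and the 3′ minus 5′ measure of RNA quality. Their parts cannot be told apart, so the values describe signal on bovine probes.

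By share, 39.5% of members were lower and 16.3% higher at an adjusted p under 0.05 in limma, against 27.4% and 21.9% of all named genes. Of the 35 members with a mean of 9 or more, 45.7% were lower and 11.4% higher. Among the 1557 named genes as bright the shares were 31.9% and 32.4%. Only COX6B2 was called with a change of at least 1.5-fold (2.33% of members), against 15.3% of named genes. The 95% interval lay within 1.5-fold for 40 of 43 members (93.0%) and for 72.7% of named genes. Groups did not overlap for 14 of 43 members lower (32.6%) and 6 of 43 higher, against 33.0% and 17.8% of all named genes. The 3′ minus 5′ difference was 0.881 in bovine against 1.18 in vehicle arrays, and with it as a covariate 2 members kept their call, SDHC and ATP5MF. The median difference was then -0.07 and the members' median SE 0.115, against 0.0447 without the covariate. Of the 24 called members 21 kept their direction, and in 10 of these the difference was as large or larger. Leaving out any single array gave 22 to 25 calls.

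**Figure D4:**
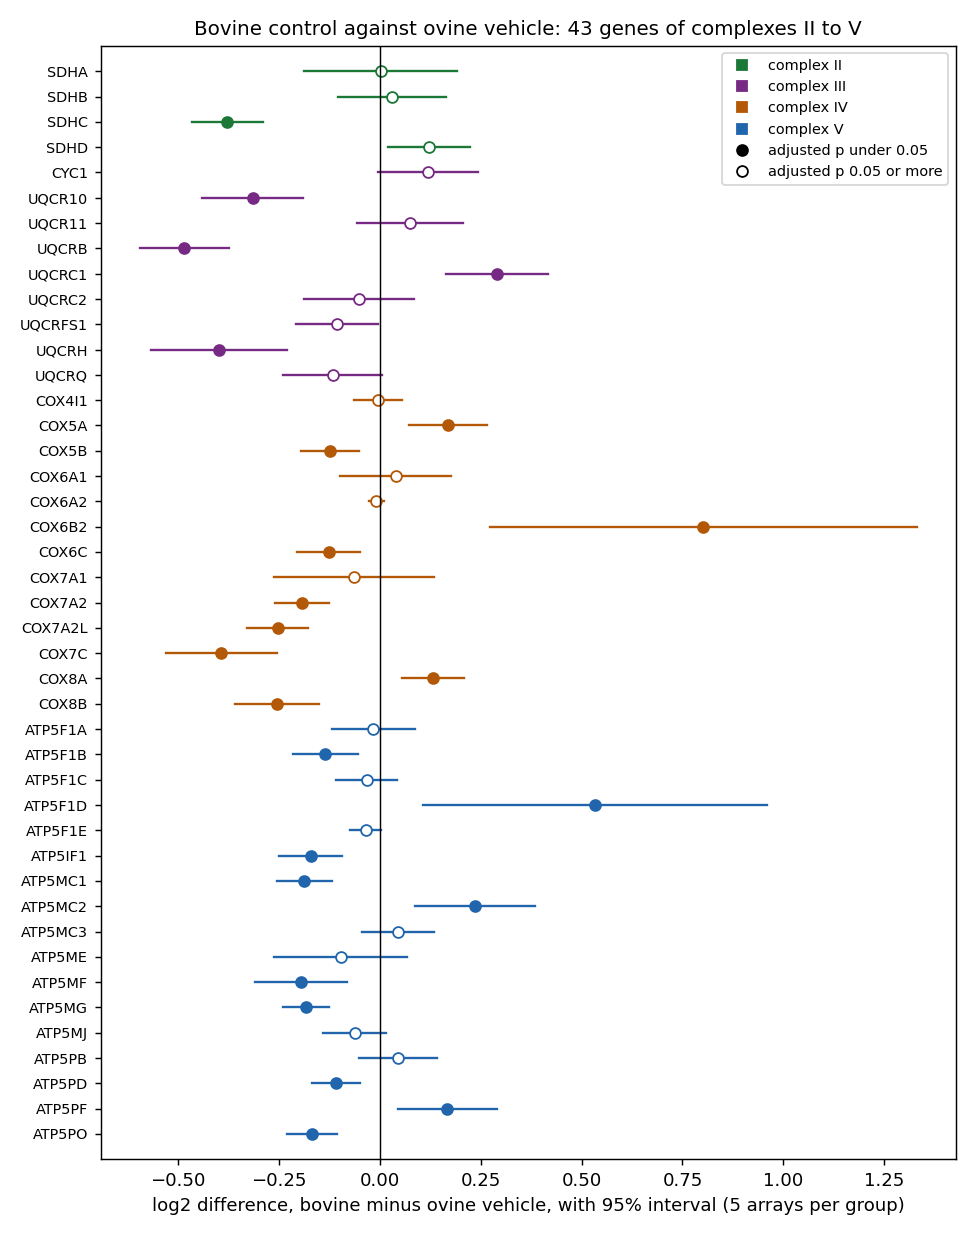
Log2 difference, bovine control minus ovine vehicle, of each of the 43 genes (points) with its 95% interval (lines), 5 arrays per group, coloured by complex; filled points have an adjusted p under 0.05. The 17 filled points left of 0 reach -0.48 (UQCRB) and the 7 right of 0 reach 0.80 (COX6B2).

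In complex II SDHC alone was called. It read 9.52, 9.54, 9.57, 9.63 and 9.64 on bovine arrays, all below the 9.85 to 10.04 of the vehicle arrays, a difference of -0.38 (SE 0.0391, adjusted p = 8.1e-05). Its partner anchor SDHD was at 0.12 (adjusted p = 0.0507), and SDHA and SDHB at 0.002 and 0.03. Without bovine replicate 3 or vehicle replicates 3 or 5, SDHD passed, with adjusted p of 0.0338, 0.0372 and 0.0397. The median of the 4 genes, 0.02, turned to -0.02 without bovine replicate 2.

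Complex III held the lowest value. UQCRB read 10.66, 10.61, 10.86, 10.76 and 10.63 on bovine arrays and 11.19, 11.25, 11.15, 11.22 and 11.15 with vehicle, a difference of -0.48 (SE 0.0488, adjusted p = 6.7e-05). A dimmer UQCRB probe set, at 4.34 in bovine and 3.87 in vehicle arrays, pointed the other way without passing (0.47, adjusted p = 0.0864), and the mean of both probe sets gave -0.01 (adjusted p = 0.964), so the call holds for the bright probe set only. UQCRH, the hinge protein that helps cytochrome c1 meet cytochrome c, read 10.42, 10.21, 10.47, 10.41 and 10.21 on bovine arrays against 10.71, 10.82, 10.60, 10.67 and 10.91 with vehicle. Those groups did not overlap either, with a difference of -0.40 (SE 0.0741, adjusted p = 0.00324). UQCR10, a small subunit beside cytochrome c1, was lower by the same measure (-0.31, adjusted p = 0.00232), whereas the core protein UQCRC1 was higher (0.29, SE 0.0557, adjusted p = 0.00385). UQCR11, CYC1, UQCRC2, UQCRFS1 and UQCRQ did not pass, with values from -0.12 to 0.12. CYC1 passed without bovine replicate 4 (0.16, adjusted p = 0.0369) and UQCRFS1 without vehicle replicate 4 (-0.14, adjusted p = 0.0223).

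In complex IV 6 genes were lower and 3 higher. COX6B2 read 4.18, 4.19, 4.44, 4.71 and 5.43 on bovine arrays and 4.01, 3.61, 3.70, 3.64 and 3.98 with vehicle. Bovine replicate 5 stood highest and no bovine array reached down to the vehicle range, and the difference was 0.80 (SE 0.233, adjusted p = 0.0244). The call was lost without bovine replicate 4 (adjusted p = 0.0525) and without vehicle replicates 2 or 4 (0.0540 and 0.0511), and with the quantile normalisation (0.0514). COX7C read 10.36, 10.17, 10.20, 10.24 and 10.30 on bovine arrays against 10.60, 10.76, 10.75, 10.47 and 10.65, a difference of -0.39 (SE 0.061, adjusted p = 0.00109) without overlap. Among the isoforms, COX7A2 read 11.41, 11.52, 11.47, 11.45 and 11.41 on bovine arrays, below all vehicle arrays (-0.19, SE 0.0298, adjusted p = 0.00103). COX7A2L read 10.21, 10.27, 10.21, 10.28 and 10.23, again below all of them (-0.25, SE 0.0336, adjusted p = 0.000408). COX8B, on its bright probe set, read 9.519, 9.559, 9.557, 9.541 and 9.498 and was lower (-0.25, SE 0.0461, adjusted p = 0.00273). COX8A went the other way, with 11.13, 11.23, 11.14, 11.19 and 11.18, above all vehicle arrays (0.13, SE 0.034, adjusted p = 0.0162). The subunits COX5A (0.17), COX5B (-0.12) and COX6C (-0.13) also passed (adjusted p from 0.0149 to 0.0193). COX5B no longer passed with centring (adjusted p = 0.140) or with dim probe sets left out (0.0566). COX4I1 (11.58, 11.64, 11.59, 11.53 and 11.62 on bovine arrays), COX6A1 (10.66, 10.85, 10.76, 10.75 and 10.61) and COX7A1 (6.17, 6.22, 6.49, 6.22 and 6.20) overlapped the vehicle arrays. They were at -0.004, 0.04 and -0.06 and did not pass, and COX4I1 turned to 0.03 with centring. Without vehicle replicate 2 the median of the 13 genes, -0.06, became -0.01, and without bovine replicate 3 it became -0.12.

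In complex V 7 genes were lower and 3 higher. ATP5F1D, the delta subunit, read 7.80, 7.82, 7.64, 7.77 and 7.85 on bovine arrays against 6.49, 7.54, 7.49, 7.23 and 7.46 with vehicle. The difference was 0.53 (SE 0.188, adjusted p = 0.0452), and 0.35 without vehicle replicate 1, the array that read 6.49. With the 3′ minus 5′ covariate it turned to -0.46 (SE 0.376, adjusted p = 0.671), and with centring it no longer passed (0.57, adjusted p = 0.0584). Its call was also lost without any 1 of the bovine replicates or vehicle replicate 4, with adjusted p of 0.0634 to 0.0842. ATP5MC2, the next of the genes for subunit c, read 11.27, 11.54, 11.35, 11.33 and 11.37 on bovine arrays and 11.08, 11.29, 11.22, 11.01 and 11.07 with vehicle, and overlapped through bovine replicate 1 and vehicle replicate 2. Its difference was 0.24 (SE 0.0656, adjusted p = 0.0209). The 3 genes for subunit c differed in direction, since ATP5MC1, at 6.93, 7.01, 6.96, 6.97 and 6.90 on bovine arrays, was lower (-0.19, SE 0.0299, adjusted p = 0.0013) and ATP5MC3, at 12.18, 12.26, 12.17, 12.12 and 12.17, did not pass (0.05, adjusted p = 0.350). The inhibitor ATP5IF1 read 11.26, 11.35, 11.23, 11.33 and 11.33 on bovine arrays and was lower (-0.17, SE 0.0346, adjusted p = 0.0051), as were ATP5MG (-0.18), ATP5PO (-0.17), ATP5MF (-0.19), ATP5F1B (-0.13) and ATP5PD (-0.11). ATP5PD no longer passed with centring (adjusted p = 0.108), with dim probe sets left out (0.0723) or with the covariate (-0.03, adjusted p = 0.980). A further ATP5MG probe set gave -0.56 (adjusted p = 0.000785), in the same direction. ATP5PF, stalk subunit F6, was higher at 0.17 (adjusted p = 0.0349), a call lost without bovine replicates 2, 3 or 4 or vehicle replicates 2 or 3. ATP5F1A, ATP5F1C, ATP5F1E, ATP5PB, ATP5ME and ATP5MJ lay between -0.10 and 0.05 and did not pass. With 1 array left out, ATP5F1E passed without bovine replicate 4 (adjusted p = 0.0376) and ATP5ME without vehicle replicate 1 (0.0386). Likewise ATP5PB passed without vehicle replicate 2 (0.042) and ATP5MJ without vehicle replicate 4 (0.0235).

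**Figure D5:**
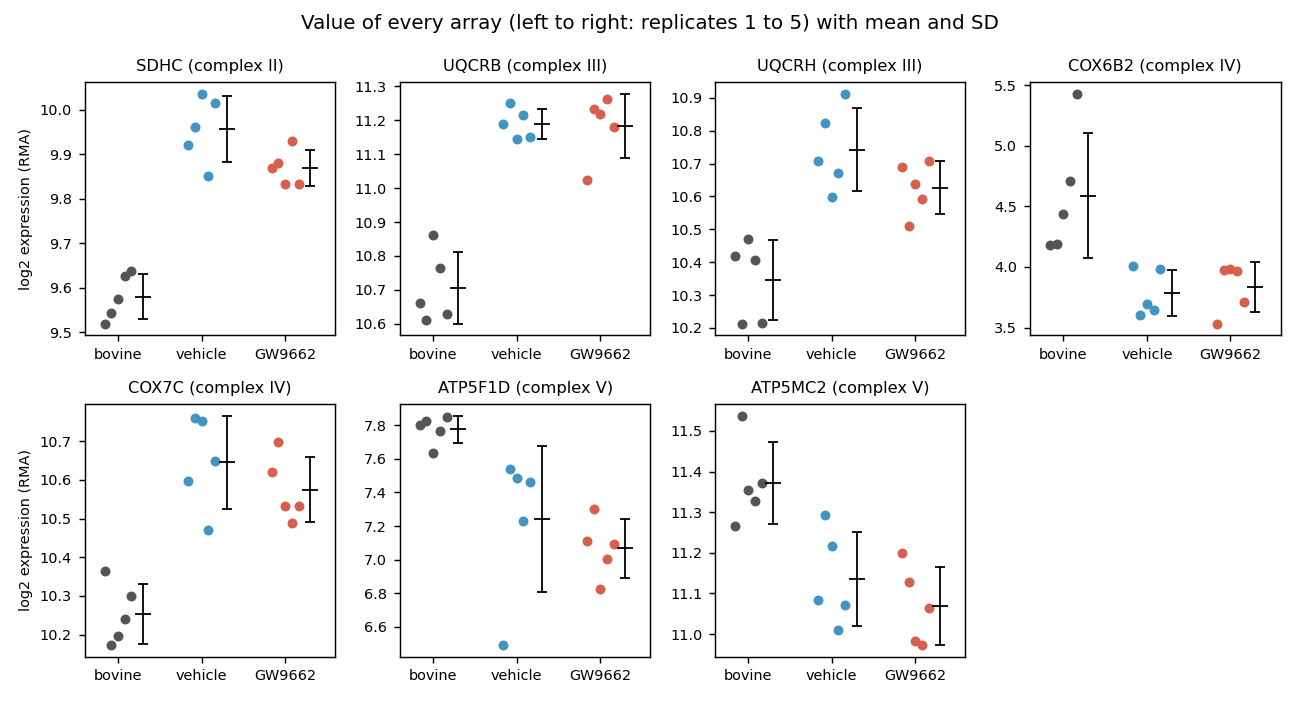
Log2 expression on every array (points, replicates 1 to 5 from left to right) with the mean and SD beside them, for up to 2 genes of each complex with the largest called difference between bovine and vehicle arrays; each panel has its own axis, which does not start at 0. Bovine arrays lie below the vehicle arrays in SDHC, UQCRB, UQCRH and COX7C and above them in COX6B2 and ATP5F1D.

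Both comparisons use the same 5 vehicle arrays. Side by side, COX5B was at -0.16 with GW9662 and -0.12 in bovine cells, ATP5MC1 at -0.19 in both, COX7A2 at -0.15 and -0.19, CYC1 at -0.22 and 0.12, and UQCRB at -0.01 and -0.48. When the bovine arrays were set against the GW9662 arrays in place of the vehicle arrays, the median of the 43 genes was 0.004, with 12 called higher and 9 lower, of which 16 were also called against vehicle. The share of all named genes called in that comparison is not given here, so these counts have no background beside them.

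The genes that build the complexes were given for comparison. Of 38 listed assembly factors 22 had a named probe set. With GW9662 0 passed in limma (2 higher and 0 lower at an unadjusted p under 0.05), 11 of 22 values were negative and the median was 0.002. Of all named genes 7.68% were higher and 12.5% lower at that p, and 60.7% were negative. COA3, which acts early in the making of COX1, was at 0.16 (adjusted p = 0.217) and COX15, an enzyme of heme A synthesis, at 0.16 (0.222). Between bovine and vehicle cells 3 assembly factors were lower and 3 higher (13.6% each), against 27.4% and 21.9% of all named genes. COX15 was lower in bovine cells with a difference of -1.02 (SE 0.0898, adjusted p = 2.78e-05), the largest among these genes, and COA4 was at -0.34 (0.00136). OXA1L, which inserts subunits into the inner membrane, was higher (0.45, SE 0.0542, adjusted p = 0.000204), as was TTC19, a factor of complex III (0.36, 0.0151). Of 18 listed regulators of mitochondrial biogenesis 10 were measured, and with GW9662 0 passed (2 lower and 0 higher at an unadjusted p under 0.05). PPARGC1A, the coactivator that drives mitochondrial biogenesis, was at the floor with 2.77 in GW9662 and 2.86 in vehicle arrays (-0.09, adjusted p = 0.217), and NRF1, which binds promoters of respiratory genes, was also at the floor (-0.02, adjusted p = 0.228). In bovine cells 3 regulators were higher and 2 lower (30.0% and 20.0%), against 21.9% and 27.4% of all named genes. The higher ones were POLG2, the accessory subunit of the mitochondrial DNA polymerase (0.86, SE 0.178, adjusted p = 0.00583), its catalytic subunit POLG (0.29, adjusted p = 0.0239) and the transcription factor YY1 (0.31, adjusted p = 0.0114). Lower by small amounts at the floor were POLRMT, the mitochondrial RNA polymerase (-0.03, adjusted p = 0.0303), and PPARGC1A, named after its value was seen (-0.11, adjusted p = 0.0309).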

How the data were processed

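RNA of 15 samples was hybridised to Affymetrix bovine arrays. The authors deposited log2 expression values; RMA is the tool that the submitters' processing notes name, and its settings are not given in the sources used here. The values ran from 0.899 to 14.07, and no detection calls were used. After 112 control probe sets were left out, 24016 were tested with limma 3.58.1 in R 4.3.3 (lmFit, eBayes), each comparison on its own 10 arrays, with Benjamini-Hochberg adjustment over all of them and a threshold of 0.05. Of these, 13292 had 1 symbol, 86 had several, and names come from the platform annotation. The number of arrays limits the precision. Genes given with the value of each array are the 2 of each complex with the smallest p for GW9662, up to 2 of each complex with the largest called difference between bovine and vehicle cells, the tissue isoforms, the subunit c genes and ATP5IF1. Of the other pathway lists, up to 4 past the threshold with the smallest p are named, or 2 where none passed. Intervals are 95% intervals from limma. The fits were tested on simulated data. No 2 arrays held the same values (at most 0.0414% of values identical in any of 105 pairs). The members, lists and tests were chosen with earlier results of these data known. Alternatives were centring or quantile scaling, leaving out dim probe sets, robust variance with a trend, weights per array, 1 fit of the 15 arrays, the replicate number as a block, the 3′ minus 5′ covariate, another choice of probe set, GW9662 in place of vehicle arrays, and each array left out; a limit at a mean of 9 was added after the data were seen.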

Additional observations from a re-analysis of the deposited data

Results flagged for a closer look

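In groups of 5 arrays, 2 of 72 groups held an array far from the others, where chance gives about 1 in 20. COX7A1, the muscle form of subunit 7A, read 6.49 on bovine replicate 3 and at most 6.22 on the other bovine arrays. ATP5MC1, a gene for subunit c of the ATP synthase, read 7.23 on vehicle replicate 5 and at most 7.13 on the other vehicle arrays. The cause was not tested in either.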

How the results depend on the processing

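With GW9662 the count of members called, 0, became 4 in the fit of all 15 arrays and 1 with the second quantile normalisation, and ran from 0 to 1 with 1 array left out; it stayed 0 in the other alternatives. The shares of all named genes called under the alternatives are not given here. The median, -0.08, was -0.036 with centring, which moved the median over all probe sets from -0.016 to 0.027. In bovine against vehicle cells the 24 calls became 2 with the 3′ minus 5′ covariate, where the median SE was 0.115 against 0.0447 without it. The cause of the changed counts was not tested. Against the GW9662 arrays the median was 0.0044. That is another comparison, in which each difference equals bovine minus vehicle less GW9662 minus vehicle. Over all probe sets same-numbered arrays did not deviate together (correlations of -0.194 to 0.172 for GW9662 and vehicle). Among the 43 members, replicate 4 held the lowest value of its group in 20 genes with vehicle and in 19 with GW9662. Whether the replicate number marks a pairing is not settled by these values. With the replicate number as a block 0 members were called for GW9662 and 20 for bovine cells, against 24 without it. Of the 4 bovine calls the block ended, 3 were ATP5F1D (adjusted p = 0.0944), COX5B (0.0787) and ATP5PD (0.0817). Some directions turned, those of the called ATP5F1D, COX5B and ATP5MC1 in bovine cells included. For GW9662 they were UQCRB (0.043) and UQCRH (0.016) with the covariate; UQCRB (0.036), COX6A2 (0.035), ATP5IF1 (0.013) and ATP5MC3 (0.018) with centring; and COX6A2 (0.0058) and COX6B2 (-0.0061) with the quantile normalisation. For bovine cells they were SDHD (-0.083), UQCRFS1 (0.11) and ATP5F1D (-0.46) with the covariate; COX4I1 (0.031) and COX6A2 (0.026) with centring; COX6A2 (0.011) with the quantile normalisation; and SDHD (-0.028), UQCRFS1 (0.079), COX4I1 (0.064), COX5B (0.042), COX7A1 (0.24) and ATP5MC1 (0.0058) against the GW9662 arrays. With 1 array left out, UQCRB ran from -0.026 to 0.034 for GW9662, and for bovine cells COX4I1 ran from -0.022 to 0.011 and COX6A1 from -0.00059 to 0.069. Of the named genes' values under alternatives, 459 kept direction and call for GW9662, 7 gained a call and 10 turned; for bovine cells 439 kept both, 35 lost a call, 9 gained one and 16 turned. Signal limits COX6A2, at the floor on all arrays.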
